A study of Mus musculus with 6 samples.

Results

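The genes *Galk1*, *Galk2*, *Galt*, *Galm*, *Pgghg*, *Amdhd2*, *Nagk* and *Gfpt1*, which encode 8 enzymes of galactose and amino sugar metabolism, were followed in mouse embryonic stem cells after knockdown of *Son*. They are 8 of the 11976 genes in the intron tables, and 54 of the 85015 introns listed there in any library are theirs. The genes were picked by name with earlier results of this same contrast in view, among them the low spliced-read levels and low splicing efficiencies of some members. Their values in that contrast are therefore given as descriptions, without p-values, and the counts of called members support nothing about the set. The cells were E14 mouse embryonic stem cells of 129/Ola background, grown in serum with LIF and transfected with *Son* siRNA or control siRNA, and RNA was taken 24 hours later. All groups were transfected with Lipofectamine 2000, and no untransfected cells were used here. Total RNA depleted of rRNA was sequenced from 2 control and 2 knockdown libraries, and Nanopore cDNA reads came from 1 library of each kind. The labels do not say that replicates came from separate cultures, so the tests measure only the spread between these libraries, which may be technical.

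Galactose enters metabolism through the Leloir pathway, in which a mutarotase, a kinase and a uridylyltransferase act in turn to make glucose 1-phosphate and UDP-galactose. Amino sugars are made from fructose 6-phosphate by the hexosamine pathway, which ends in UDP-N-acetylglucosamine, the donor for glycan chains and for O-GlcNAc on proteins, and salvage enzymes return amino sugars freed by glycan breakdown. Son is a large protein of nuclear speckles known to aid the splicing of introns with weak splice sites.

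In the knockdown libraries *Galk1*, *Pgghg* and *Amdhd2* had 2.96-fold to 3.74-fold fewer spliced reads than in the controls. Of their 14 tested introns 8 were called less efficiently spliced, 7 of them in main transcripts, against 1.71% of all tested introns. The remaining call was an *Amdhd2* entry holding mostly split reads of other introns, as described below. The other 5 genes had 20 tested introns, none of them called, and spliced-read levels within 1.20-fold of the control mean. The 3 genes are set apart from the other 5 by these same values, so this contrast is only a description. *Galk1* encodes galactokinase and *Amdhd2* the N-acetylglucosamine-6-phosphate deacetylase, while *Pgghg* encodes a glucosidase acting on the glucosyl-galactosyl unit of hydroxylysine in collagens.

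The introns these differences rest on are shown here by the exon ends that splicing joins, so that the counted junctions can be seen. Each line holds the last 25 bases of the upstream exon and the first 25 of the downstream exon of the GENCODE M21 transcript, 5′ to 3′, all of it coding sequence, with capitals for the last 3 bases before and the first 2 after the junction. The 7 introns of main transcripts that were called lower come first, and 3 short introns that were not called follow for comparison.
Galk1 intron 2: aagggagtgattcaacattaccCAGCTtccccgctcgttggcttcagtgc
Galk1 intron 3: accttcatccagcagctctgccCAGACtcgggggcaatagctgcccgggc
Galk1 intron 7: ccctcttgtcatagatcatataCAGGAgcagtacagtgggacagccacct
Pgghg intron 7: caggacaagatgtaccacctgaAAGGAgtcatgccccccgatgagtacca
Amdhd2 intron 4: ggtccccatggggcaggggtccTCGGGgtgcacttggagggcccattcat
Amdhd2 intron 5: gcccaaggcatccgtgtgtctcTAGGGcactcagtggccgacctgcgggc
Amdhd2 intron 6: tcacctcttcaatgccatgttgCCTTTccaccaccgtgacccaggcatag
Galk1 intron 6: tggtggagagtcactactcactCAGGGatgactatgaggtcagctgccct
Galt intron 6: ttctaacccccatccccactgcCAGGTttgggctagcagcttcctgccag
Galt intron 8: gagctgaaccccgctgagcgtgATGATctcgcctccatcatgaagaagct
The last 3 exon bases belong to the 5′ splice site, where most mammalian exons end in AG. Of the 7 called introns shown, 5 had an upstream exon ending in AG and 6 in G, and in 4 the next exon began with G. Of the 25 introns of main transcripts that were tested and not called, 16 had AG, 22 had G and 22 had G as the next base. The 200 exon bases around the junction held 53.0% to 64.0% G and C in the called introns (median 58.5%) and 42.5% to 63.5% in the others (median 52.5%). Among these others, introns 1, 4 and 6 of *Galk1* held 57.0% to 63.5% and introns 8, 12 and 13 of *Pgghg* 52.0% to 57.0%. The medians thus do not separate the call from the gene. These sequences are the reference's, not read from the E14 cells, and the intron sequences themselves were not used here.

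The total RNA values are counts of split reads, which cross a junction already spliced, and unsplit reads, which run from exon into intron. Splicing efficiency is the split share of these reads at both junctions of an intron, from 0 to 1. The 4 libraries held 10556187 to 16012286 split reads at 5′ junctions and listed 73180 to 79975 introns, each junction with at least 10 reads. The long-read libraries held 3080426 control and 1874851 knockdown reads. *Son* itself, the targeted gene, had 282.9 and 314 CPM (spliced reads per 1000000 counted) in the controls and 93.5 and 102.1 CPM in the knockdowns. Of 8 embryonic stem cell markers 7 were listed, with summed levels of 3984 to 4230 CPM in the 4 libraries. *Sox2* was not among them but had 112 control and 118 knockdown long reads. Of 16 marker genes of feeder fibroblasts, primitive endoderm, trophoblast and neural or mesodermal cells, 4 were listed (*Thy1*, *Gata4*, *Eomes* and *Pax6*), with list sums between 1.16 and 4.72 CPM. In such bulk samples fewer cells of a type and less RNA per cell cannot be told apart.

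The main transcripts of the 8 genes have 82 introns, and 54 introns of the genes were listed in at least 1 library, 47 of them in a main transcript. Of the 35 main-transcript introns that were not listed, 32 were touched by another annotated exon of the same gene, and none of the 47 listed ones was. Listed in all 4 libraries were 36 introns. Of the other 18, 15 were missing from knockdown replicate 2, and of *Pgghg* 11 and 10 introns were listed in the controls but 8 and 4 in the knockdown libraries. A test was made of 34 introns, those reaching 10 split and 10 unsplit reads in sum over the libraries. The 10 reads of a listed junction count split and unsplit reads together, so introns with few split reads could be listed through unsplit ones.

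Efficiency was tested with edgeR's quasi-likelihood test on split and unsplit reads, fitted over all 63309 testable introns and called at a Benjamini-Hochberg adjusted p under 0.05. The test gives a log2 odds ratio, positive where the knockdown had more unsplit reads per split read. By this rule 8 of the 34 tested member introns (23.5%) were called lower and 0 higher, against 1.71% lower and 0.0442% higher among all tested introns. Both knockdown libraries were below both controls in 17 member introns and above both in 3, against 24.3% and 13.1% of all introns. The median change was −0.0401 over the 34 introns and −0.0042 over all. The members' share was fixed in part by how they were picked, so nothing is read from it. The number of calls moved with the libraries: without control replicate 1 it was 2 (*Galk1* intron 2 and *Amdhd2* intron 6). With the 5′ junction alone the same 2 introns were called, and with the 3′ junction alone 5 introns were.

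**Figure D1:**
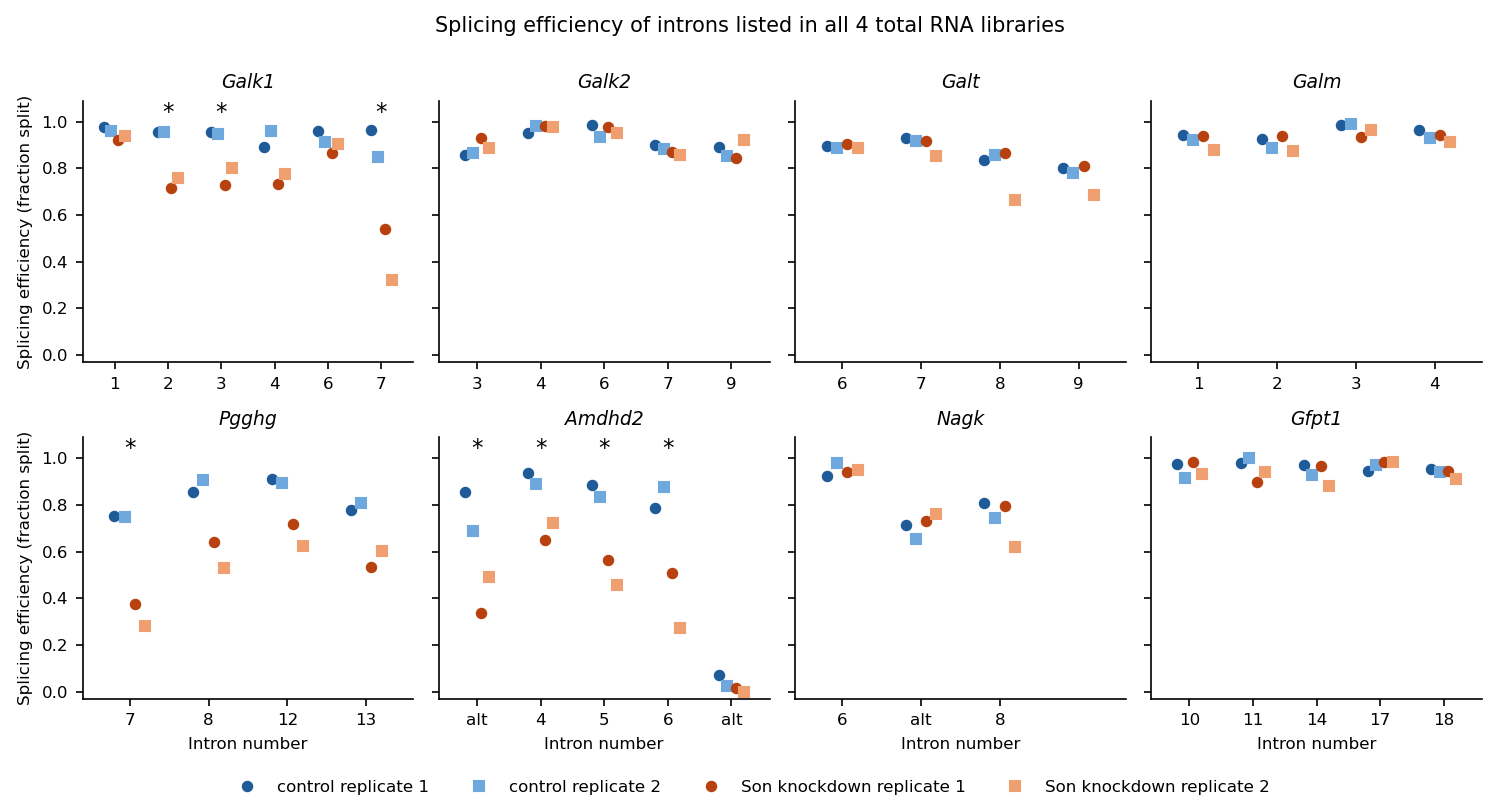
Splicing efficiency (fraction of split reads, vertical axis) of each intron listed in all 4 total RNA libraries, by intron number in the main transcript, for the 8 genes. Points are single libraries, blue for control and orange for *Son* knockdown, "alt" marks an intron of another transcript and an asterisk an intron called lower. The orange points lie below the blue ones in every shown intron of *Galk1*, *Pgghg* and *Amdhd2*. Introns not listed in knockdown replicate 2 are not shown. Of these, *Galk1* intron 5 had 0.651 in knockdown replicate 1, between controls of 0.618 and 0.800. *Pgghg* intron 1 had 0.692 there, between 0.589 and 0.700. In *Pgghg* introns 4, 10 and 11 and *Amdhd2* intron 1, knockdown replicate 1 was below both controls.

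*Galm* encodes the galactose mutarotase, which turns the beta form of galactose into the alpha form that the kinase uses. Its spliced-read level (ENSMUSG00000035473, chromosome 17), the split reads at 5′ junctions summed over introns listed in all 4 libraries, was 14.0 and 15.2 CPM in the controls and 18.5 and 14.6 CPM in the knockdowns. The groups overlapped, at 14.6 ± 0.803 and 16.6 ± 2.74 CPM (SD, n = 2), with a log2 fold change of 0.20 (SE 0.177). None of its 4 tested introns was called. Among its introns listed in all 4 libraries, the largest fall in mean efficiency was in the 4902-nt intron 3 (chr17:80452616-80457517), from 0.988 to 0.950. There 3 unsplit reads in the controls and 16 in the knockdowns stood behind a log2 odds ratio of 2.10 (SE 0.938). This is a change of few reads in an intron that remained almost fully spliced in all 4 libraries.

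*Galk1* encodes galactokinase, which phosphorylates galactose in the first committed step of the pathway. Its spliced-read level (ENSMUSG00000020766, chromosome 11) was 73.4 and 67.5 CPM in the controls and 26.6 and 20.6 CPM in the knockdowns, from 1135, 699, 393 and 214 reads. The knockdown libraries were both far below the controls, 23.6 ± 4.27 against 70.5 ± 4.15 CPM (SD, n = 2), 2.96-fold lower (log2 fold change −1.57, SE 0.131). Ordered from the lowest log2 fold change, the gene stood 24th of 9474 genes. It had the highest level per listed intron of the 8 genes in the controls, 11.7 CPM, and 3.94 CPM in the knockdowns, near the 4.79 of *Galk2* and the 4.14 of *Galm* there.

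All 6 tested introns of *Galk1* had lower efficiency in both knockdown libraries, and 3 were called. Intron 2 (chr11:115901509-115901852, 344 nt) had an efficiency of 0.956 and 0.958 in the controls and 0.718 and 0.757 in the knockdowns. Behind these stand 594 split and 27 unsplit junction reads in the controls and 173 and 64 in the knockdowns, a log2 odds ratio of 2.99 (SE 0.559). The groups were far apart beside the spread within each, and the call held without any single library. Intron 3 (chr11:115901203-115901388, 186 nt) gave 0.956, 0.948, 0.728 and 0.800 in the same order, a log2 odds ratio of 2.62 (SE 0.511). Intron 7 (chr11:115899541-115899628, 88 nt), the last of the gene, gave 0.965 and 0.848 in the controls and 0.542 and 0.320 in the knockdowns. It had the largest fall of the 34 introns, from 0.906 ± 0.0828 to 0.431 ± 0.157 (SD, n = 2), and the widest spread within groups among the called introns of the gene. The calls of introns 3 and 7 were lost without control replicate 1, with log2 odds ratios of 2.48 and 2.78.

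The introns of *Galk1* did not all move by the same amount. The 82-nt intron 6, next to intron 7 and of nearly its length, went from a mean of 0.936 to 0.886, and the 1297-nt intron 1 from 0.968 to 0.931. Intron 4 (138 nt) went from 0.925 to 0.753, but its unsplit reads lay only at the 5′ junction. There were 13 and 3 of these in the controls and 11 and 7 in the knockdowns, and 0 at the 3′ junction in all 4 libraries. Within 1 gene, the fall in mean efficiency thus ran from −0.0376 in intron 1 to −0.475 in intron 7.

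*Galt* encodes the galactose-1-phosphate uridylyltransferase, the step after the kinase. Its spliced-read level (ENSMUSG00000036073, chromosome 4) was 32.9 and 37.3 CPM in the controls and 28.5 and 31.4 CPM in the knockdowns. Both knockdown libraries were below both controls by a small margin, with a log2 fold change of −0.23 (SE 0.134) that was not called. Its 4 tested introns, 102 to 305 nt long, are among the short ones, and none was called. The largest fall in mean efficiency was in intron 8 (chr4:41757593-41757694, 102 nt), with 0.835 and 0.856 in the controls and 0.865 and 0.664 in the knockdowns. Knockdown replicate 1 was above both controls and replicate 2 below them, so the log2 odds ratio of 0.65 (SE 0.544) became −0.23 without knockdown replicate 2. Introns 6 and 7 went from 0.892 to 0.896 and from 0.925 to 0.883. *Galt* overlaps *Il11ra1* on the same strand, so its reads may include some of that gene's.

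*Galk2* encodes a kinase related to *Galk1* that acts mainly on N-acetylgalactosamine. Its spliced-read level (ENSMUSG00000027207, chromosome 2) was 24.1 and 26.7 CPM in the controls and 24.7 and 23.2 CPM in the knockdowns, and the groups overlapped (log2 fold change −0.08, SE 0.145). The 5 tested introns are 1593 to 15378 nt long, and none was called. Among introns listed in all 4 libraries, the largest fall was in intron 7 (chr2:125773326-125788703, 15378 nt). It had 0.900 and 0.882 in the controls and 0.871 and 0.857 in the knockdowns. In intron 3 both knockdown libraries were above both controls, 0.931 and 0.888 against 0.858 and 0.867. The gene overlaps *Cops2* and *Fam227b* on the other strand, and how strand was handled is not given in the sources used here, so its reads may include some of theirs.

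*Pgghg* encodes the protein-glucosylgalactosylhydroxylysine glucosidase, which takes the glucose off the disaccharide that collagens carry on hydroxylysine. Its spliced-read level (ENSMUSG00000062031, chromosome 7) was 19.1 and 17.3 CPM in the controls and 5.02 and 4.72 CPM in the knockdowns, from 296, 179, 74 and 49 reads. At 3.74-fold (18.2 ± 1.31 to 4.87 ± 0.212 CPM, SD, n = 2) this was the largest fold among the 8 genes, a log2 fold change of −1.90 (SE 0.203) and the 8th lowest of 9474 genes.

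Efficiency was below both controls in both knockdown libraries for all 4 tested introns of *Pgghg*, which are 73 to 105 nt long. Intron 7 (chr7:140525263-140525367, 105 nt), the only one called, had 0.753 and 0.750 in the controls and 0.377 and 0.279 in the knockdowns. Behind the log2 odds ratio of 2.59 (SE 0.654) were 176 split and 58 unsplit reads in the controls and 44 and 84 in the knockdowns. Unsplit reads thus outnumbered split reads in the knockdown libraries at this intron. It was not called with the 5′ junction alone or the 3′ junction alone, and it was called by DESeq2. Its call was lost without control replicate 1, control replicate 2 or knockdown replicate 2, while the log2 odds ratio lay between 2.32 and 2.96. The mean efficiency of the other 3 went from 0.881 to 0.585 in intron 8 (98 nt), from 0.902 to 0.671 in intron 12 (73 nt) and from 0.795 to 0.569 in intron 13 (75 nt), with log2 odds ratios of 2.33, 2.17 and 1.54.

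*Gfpt1* encodes glutamine–fructose-6-phosphate transaminase, the rate-limiting enzyme of the hexosamine pathway. Its spliced-read level (ENSMUSG00000029992, chromosome 6) was 18.6 and 16.0 CPM in the controls and 22.6 and 18.9 CPM in the knockdowns. Both knockdown libraries were above both controls, knockdown replicate 2 by little, with a log2 fold change of 0.26 (SE 0.165) that was not called. None of its 4 tested introns was called. Among its introns listed in all 4 libraries, the largest fall was in the 5602-nt intron 11 (chr6:87044762-87050363). It had 0.981 and 1 in the controls and 0.900 and 0.941 in the knockdowns, and too few unsplit reads to be tested. In intron 17 both knockdown libraries were above both controls, with means of 0.958 and 0.984.

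*Nagk* encodes the N-acetylglucosamine kinase that starts the salvage of this amino sugar. Its spliced-read level (ENSMUSG00000034744, chromosome 6) was 9.70 and 10.6 CPM in the controls and 9.02 and 9.14 CPM in the knockdowns, with a log2 fold change of −0.16 (SE 0.202) that was not called. Without an intron of another transcript, the levels over introns 6 and 8 were 6.40 and 7.73 CPM in the controls and 6.51 and 5.49 CPM in the knockdowns, which overlapped. None of its 3 tested introns was called. One of them is a 668-nt intron of another transcript, whose 5′ end is that of main intron 7, which was not listed. In the 4 libraries (controls first) it had 51, 30, 37 and 38 split reads at the 5′ junction. At the 3′ junction it had 1, 0, 4 and 10. Most of its 5′ split reads thus joined some other 3′ end. Its efficiency, counted among the 3 introns above both controls, is not that of the 668-nt intron. The largest fall was in intron 8 (chr6:83778171-83778479, 309 nt), with 0.810 and 0.742 in the controls and 0.794 and 0.621 in the knockdowns. The groups overlapped, and the log2 odds ratio of 0.43 (SE 0.619) became −0.14 without knockdown replicate 2.

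*Amdhd2* encodes the deacetylase that turns N-acetylglucosamine 6-phosphate into glucosamine 6-phosphate, working against the forward hexosamine pathway. Its spliced-read level (ENSMUSG00000036820, chromosome 17) was 30.9 and 31.3 CPM in the controls and 10.03 and 8.86 CPM in the knockdowns. The controls were almost equal and the knockdowns 3.27-fold lower, 9.44 ± 0.832 against 31.1 ± 0.278 CPM (SD, n = 2), with a log2 fold change of −1.71 (SE 0.163), the 18th lowest of 9474 genes.

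All 4 tested introns of *Amdhd2* were called lower, 3 of them a run of neighbouring short introns. Intron 4 (chr17:24377497-24377613, 117 nt) had an efficiency of 0.935 and 0.891 in the controls and 0.649 and 0.722 in the knockdowns. Intron 5 (chr17:24377207-24377283, 77 nt) had 0.886, 0.834, 0.564 and 0.456 in the same order. Intron 6 (chr17:24377037-24377117, 81 nt) had 0.787 and 0.876 in the controls and 0.510 and 0.274 in the knockdowns. In each the groups were clearly separated, and in intron 6 the 2 knockdown libraries also stood well apart. The log2 odds ratios were 2.31 (SE 0.541), 2.58 (SE 0.443) and 2.94 (SE 0.534). Intron 6 had 344 split and 71 unsplit reads in the controls against 108 and 153 in the knockdowns. The calls of introns 4 and 5 were lost without control replicate 1, with log2 odds ratios of 1.91 and 2.26, and that of intron 6 was kept without any single library. With the 5′ junction alone neither intron 4 nor intron 5 was called (log2 odds ratios of 1.99 and 2.07). Nor was intron 4 called with the 3′ junction alone (2.30) or by DESeq2 (2.15).

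The 4th called entry of *Amdhd2* differs in kind. It is a 2887-nt intron of Amdhd2-202 (chr17:24377669-24380555), a transcript with 5 control long reads and 0 knockdown ones. Its 3′ end is that of the 4281-nt intron 3 of the main transcript, which was not listed. At the 3′ junction 130, 87, 24 and 22 split reads were counted in the 4 libraries (controls first), but at the 5′ junction 2, 1, 2 and 2. Nearly all of its split reads therefore joined the shared 3′ end to some other 5′ end, and its summed efficiency of 0.857 and 0.688 in the controls and 0.338 and 0.490 in the knockdowns is not that of the 2887-nt intron. At the 3′ junction alone the efficiency was 0.942 and 0.926 in the controls and 0.600 and 0.815 in the knockdowns. The call was lost without control replicate 1 or knockdown replicate 1 (log2 odds ratios of 1.68 and 1.88). It was also lost with the 3′ junction alone (2.62) and by DESeq2 (2.23), and without this entry 7 member introns were called. A further 358-nt intron listed for *Amdhd2* had an efficiency of 0.0732 or less in all 4 libraries, so it was hardly spliced in either group.

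Reads on the 2 sides of the ratio can be set against each other per gene. Unsplit reads at 5′ junctions of *Galk1* were 3.36 and 4.64 CPM in the controls and 5.22 and 4.24 in the knockdowns. For *Pgghg* they were 4.46 and 3.28 in the controls and 4.75 and 4.43 in the knockdowns. In both genes the groups overlapped, and the knockdown mean was 1.18 times the control mean, while split reads fell to 0.335 and 0.267 of the control mean. For *Amdhd2* unsplit reads were 6.66 and 10.6 CPM in the controls and 11.9 and 14.8 in the knockdowns, which did not overlap, a ratio of means of 1.54 beside a ratio of 0.304 for split reads. Over introns 4 to 6 alone, a choice made after seeing the data, they were 4.91 and 5.02 CPM against 7.46 and 10.11 CPM, and the ratios were 1.77 and 0.300. In all 3 genes the split CPM lost at 5′ junctions was thus far above the unsplit CPM gained there. At these junctions, the fall in efficiency of *Galk1* and *Pgghg* came mostly from the split reads. The sums leave out 3′ junctions, and this does not carry over to them in *Galk1*. There its called introns 2, 3 and 7 had 4, 13 and 2 unsplit reads in control replicate 1 and 4, 12 and 2 in control replicate 2. In knockdown replicate 1 they had 19, 37 and 16, and in knockdown replicate 2 they had 8, 17 and 8. In introns 1 and 6 the groups overlapped there. At both junctions together, unsplit reads went from 27 to 64 in the called *Galk1* intron 2. They went from 36 to 76 in intron 3 and from 13 to 39 in intron 7, both called. In introns 1, 4 and 6 they went from 40 to 35, 16 to 18 and 42 to 36. In *Pgghg* intron 7 they went from 58 to 84. Its introns 8, 12 and 13 went from 27 to 34, 33 to 33 and 71 to 58. Among the other 5 genes the ratio for unsplit reads at 5′ junctions ran from 0.705 in *Galk2* to 1.67 in *Galm*. For split reads there it ran from 0.853 in *Galt* to 1.20 in *Gfpt1*.

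**Figure D2:**
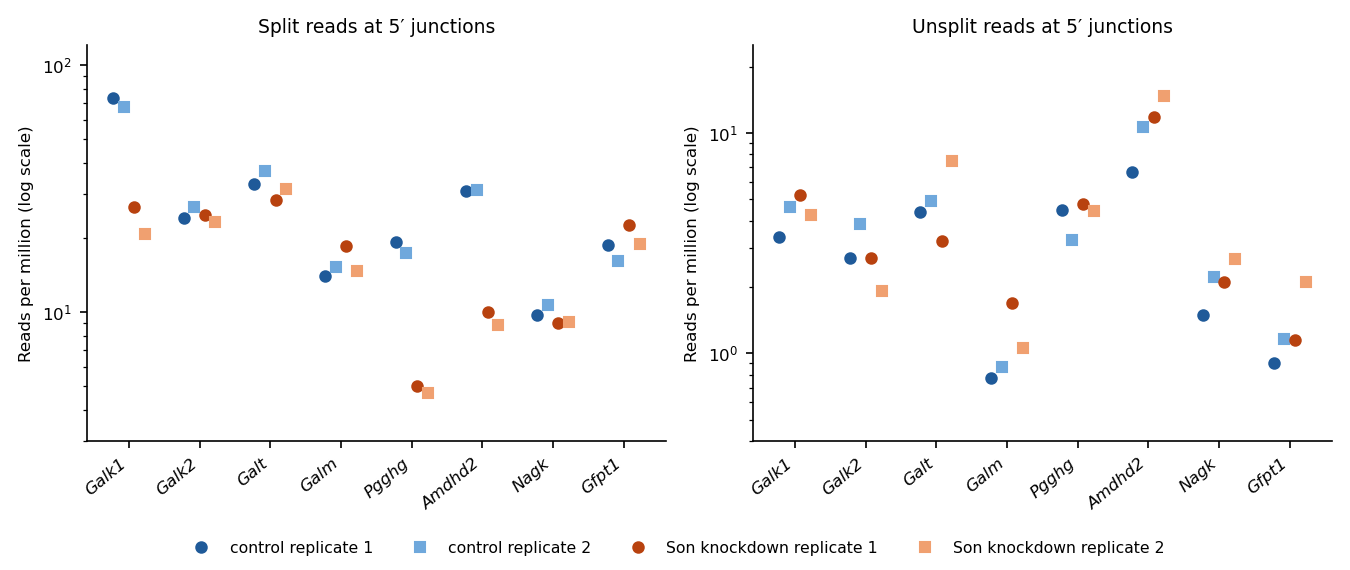
Split (left) and unsplit (right) reads at 5′ junctions, in CPM, summed over each gene's introns listed in all 4 libraries, on log axes. Each point is 1 total RNA library, blue for control and orange for *Son* knockdown. For *Galk1* and *Pgghg* the orange points lie far below the blue ones in the left panel, and in the right panel the orange and blue points overlap.

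By gene, the spliced reads of 3 of the 8 members were called fewer and of 0 more, against 6.76% and 1.96% of the 9474 genes tested by the same edgeR test. Both knockdown libraries were below both controls in 5 members and above both in 1, against 24.6% and 24.0% of all genes. The median log2 fold change was −0.19 over the members and 0.01 over all genes. The 3 calls were made again without each library in turn, with log2 fold changes from −1.78 to −1.41 for *Galk1*, −1.97 to −1.83 for *Pgghg* and −1.81 to −1.63 for *Amdhd2*. Gene-level efficiency, split over all reads at 5′ and 3′ junctions of the listed introns, went from 0.953 ± 0.0122 to 0.822 ± 0.0132 in *Galk1*, from 0.835 ± 0.0106 to 0.531 ± 0.0175 in *Pgghg* and from 0.827 ± 0.0365 to 0.455 ± 0.0284 in *Amdhd2* (SD, n = 2). The value of *Amdhd2* includes the 2887-nt and 358-nt entries, and over introns 4 to 6 alone it went from 0.872 ± 0.0131 to 0.518 ± 0.0644 (SD, n = 2). In the other 5 genes the change in its mean ran from −0.0377 in *Galt* to 0.0152 in *Galk2*.

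The rule did not use intron length. The 14 tested introns of *Galk1*, *Pgghg* and *Amdhd2* had a median length of 101.5 nt, and 11 of them were at most 200 nt. The 20 of the other 5 genes had a median of 1244 nt, and 3 of them, all in *Galt*, were at most 200 nt. The median over all tested introns was 1128 nt, and over all introns called lower 131 nt. Up to 100 nt, 8.28% of all tested introns were called lower and 3 of 7 member introns were. From 101 to 200 nt the shares were 6.77% and 3 of 7, from 201 to 400 nt 2.88% and 1 of 3, from 401 to 1000 nt 0.777% and 0 of 5, from 1001 to 5000 nt 0.253% and 1 of 5 (the 2887-nt entry of *Amdhd2*), and above 5000 nt 0.0997% and 0 of 7. The 3 introns of *Galt* in the shortest classes changed by −0.081 to 0.0033, and the uncalled 82-nt intron 6 of *Galk1* by −0.0498. Introns 8, 12 and 13 of *Pgghg* and intron 4 of *Galk1*, also short and uncalled, fell more. They changed by −0.297, −0.232, −0.225 and −0.172. Short introns were thus found among the uncalled members too, some with a clear fall and some with little change. The part of length in the members' calls was not tested.

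**Figure D3:**
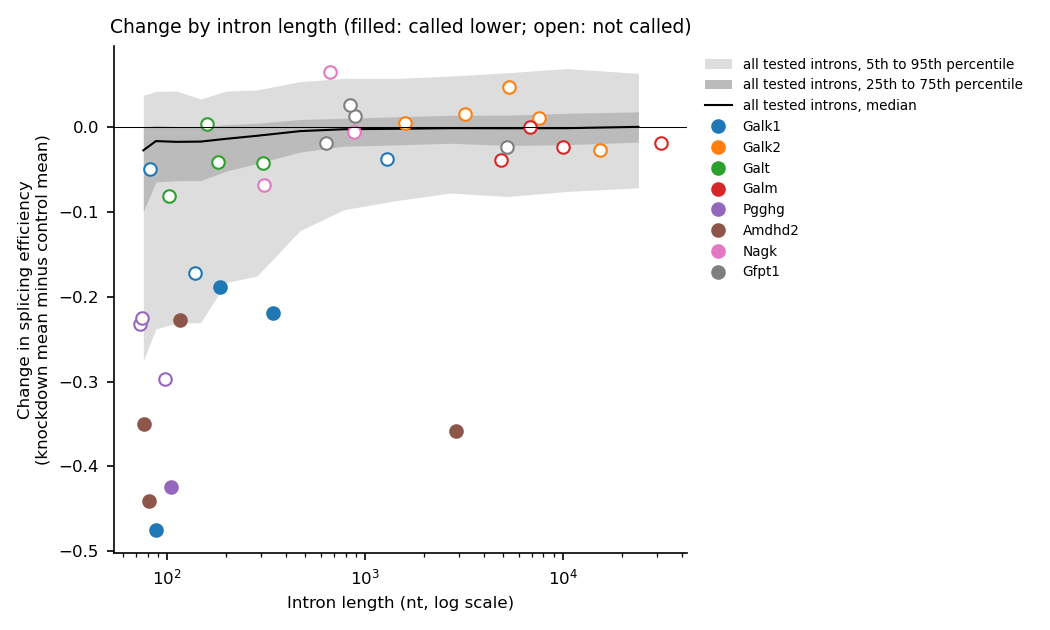
Change in mean splicing efficiency (knockdown minus control) of the 34 tested introns against intron length in nt (log axis), coloured by gene, filled where called lower. The grey bands and the line show percentiles and the median of all tested introns by length. Most points of *Pgghg*, *Amdhd2* and *Galk1* at under 400 nt lie near or below the 5th percentile, and the filled point at 2887 nt is the *Amdhd2* entry whose split reads were almost all at its 3′ junction.

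The long reads measure the same genes in other libraries, 1 per group, so they carry counting error only and no test. They are reads per annotated transcript, summed by gene and given as CPM with 95% Wilson intervals, and 32 of the members' 53 transcripts had any read. *Galk1* had 195 control and 50 knockdown reads, or 63.3 (55.0 to 72.8) and 26.7 (20.2 to 35.2) CPM, all on its single annotated transcript. *Amdhd2* had 89 and 20 reads, or 28.9 (23.5 to 35.6) and 10.7 (6.91 to 16.5) CPM. *Pgghg* had 24 and 3 reads, or 7.79 (5.24 to 11.6) and 1.60 (0.544 to 4.71) CPM. In these 3 genes the intervals of the libraries did not overlap, but the share of all genes where this was so is not given here. The log2 ratios were −1.24, −1.41 and −2.09, with an interval of −3.82 to −0.36 for *Pgghg*. With a pseudocount of 5 reads in place of 0.5 that ratio was −1.14, since it rests on 3 reads.

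The intervals of the other 5 genes overlapped. *Galk2* had 73 and 53 reads, *Galt* 59 and 34, *Galm* 41 and 37, *Nagk* 71 and 37 and *Gfpt1* 18 and 20, with log2 ratios of 0.26, −0.07, 0.57, −0.21 and 0.86. Thus 3 of 8 members were at least 2-fold lower and 0 at least 2-fold higher, against 4.16% and 2.21% of 9611 genes with 20 or more long reads. The description of the long-read control names a knockdown sample as its starting material, so how it relates to the total RNA libraries is unclear. *Son* had 217 long reads in the library labelled control and 37 in the one labelled knockdown.

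**Figure D4:**
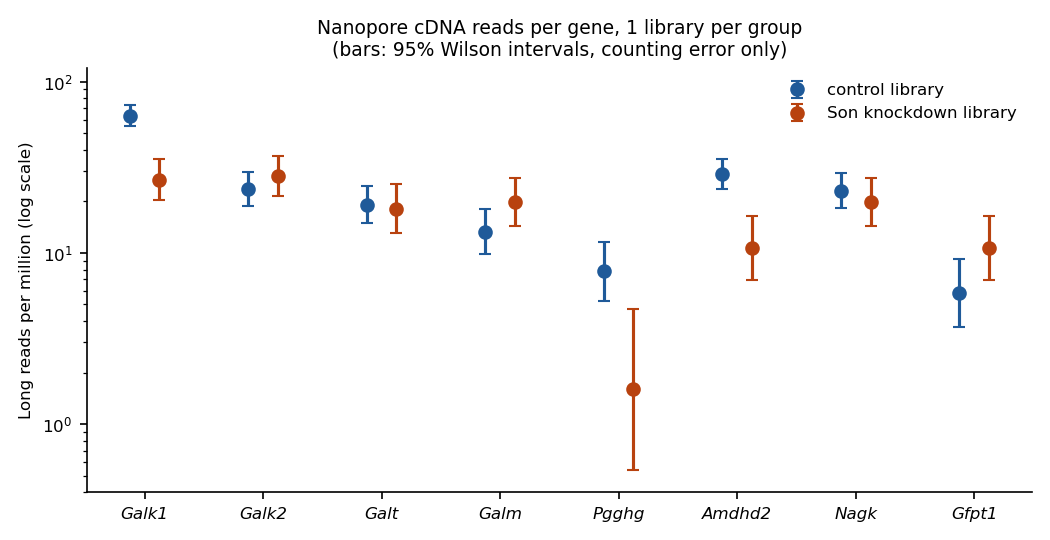
Nanopore cDNA reads in CPM (log axis) of the 8 genes in the control library (blue) and the *Son* knockdown library (orange), 1 library each. Points are gene sums over annotated transcripts and bars are 95% Wilson intervals, which cover counting error only. The bars of *Galk1*, *Pgghg* and *Amdhd2* do not overlap between libraries, and those of the other 5 genes do.

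Among transcripts, the fully spliced Amdhd2-201 went from 79 to 12 reads, a log2 ratio of −1.95. The 4 models of *Amdhd2* annotated as retaining an intron had 5 of its 89 reads in the control, 5.62% (95% Wilson interval 2.42 to 12.5), and 8 of 20 in the knockdown, 40% (21.9 to 61.3). Most of the latter, 6 reads against 1, were on Amdhd2-204, which keeps the 80-nt intron 2 of the main transcript. That intron was not among those listed for total RNA. The share of *Nagk* reads on such models was 2 of 71, 2.82% (0.776 to 9.70), and 6 of 37, 16.2% (7.65 to 31.1), with 0 and 3 reads on Nagk-204 and 1 and 2 on Nagk-207. In *Amdhd2* the intervals did not overlap, and in *Nagk* they did. The share of reads on such models over all genes is not given here, so nothing is read from this difference.

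*Pgghg* and *Galk2* differed from these. The retained-intron model Pgghg-206 had 7 of the gene's 24 control reads and 0 of its 3 knockdown reads, a share whose 95% Wilson interval reaches 56.2%. Galk2-203 had 4 control reads and 0 in the knockdown. Over the 8 genes 18 of 570 control reads and 14 of 254 knockdown reads were on retained-intron models. The main coding transcripts of the other genes were Galk2-202 with 65 and 46 reads, Galt-201 with 47 and 21, Galm-201 with 41 and 37, Nagk-201 with 50 and 25 and Gfpt1-204 with 17 in each library. Pgghg-201 had 13 and 2.

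The rest of the pathways was read from 5 lists of 47 other genes. These lists, too, were written with earlier results of these data in view, so nothing is read from their shares. Of the 47 genes 44 could be tested for spliced reads. Fewer spliced reads were called in 5 of these (11.4%) and more in 0, against 6.76% and 1.96% of all genes, and the median log2 fold change was −0.02. Of their 288 tested introns 9 were called lower (3.13%) and 0 higher, against 1.71% and 0.0442% of all introns, and these lay in 4 of 43 genes (9.30%), against 5.42% of all genes with a tested intron. The count of genes rested on the libraries. It was 2, both fewer, without either control replicate, and 1, fewer, from each gene's best covered intron alone. Without knockdown replicate 1 it was 11, with 9 fewer and 2 more, and without knockdown replicate 2 it was 10, with 8 fewer and 2 more.

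In the galactose list, which includes *Ugp2*, *Pgm1*, *Pgm2*, the galactosidases *Glb1* and *Gla*, *B4galt1* and *Akr1b3*, none of the 8 genes and none of 49 introns was called (median log2 fold change 0.06). *Gla*, the lysosomal alpha-galactosidase, had 28.0 and 25.0 CPM in the controls and 32.5 and 33.3 CPM in the knockdowns (log2 fold change 0.31, edgeR adjusted p = 0.209).

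Among 10 genes of UDP-N-acetylglucosamine synthesis and O-GlcNAc 1 was called (median 0.01), with 2 of 103 introns (1.94%). *Uap1l1*, a relative of the pyrophosphorylase *Uap1*, had 13.4 and 15.6 CPM in the controls and 8.61 and 4.33 CPM in the knockdowns (log2 fold change −1.11, edgeR adjusted p = 0.00447). Its log2 fold change was −1.73 without knockdown replicate 1 and −0.74 without knockdown replicate 2, called in both. Its 101-nt and 193-nt introns fell from mean efficiencies of 0.851 to 0.556 and of 0.712 to 0.271. *Gfpt2*, the second transaminase gene, stood at 411.5 and 471.9 CPM (log2 fold change 0.20, adjusted p = 0.0886).

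The list of amino sugar recycling and sialic acid had 2 calls among 12 tested genes (median −0.19) and none among 44 introns. *Renbp*, which encodes the renin-binding N-acetylglucosamine epimerase, had 10.6 and 10.8 CPM in the controls and 5.69 and 6.06 CPM in the knockdowns (log2 fold change −0.87, edgeR adjusted p = 0.0119). *Hexa*, the alpha subunit of lysosomal hexosaminidase, had 183.5 and 183.7 CPM against 138.7 and 155.4 CPM (log2 fold change −0.32, edgeR adjusted p = 0.0182). Without control replicate 1 the adjusted p was 0.102 for *Renbp* and 0.255 for *Hexa*, and without control replicate 2 it was 0.102 and 0.266.

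Of 10 tested genes of other nucleotide sugars 2 were called (median −0.16), with 6 of 54 introns (11.1%). *Fuk*, the fucose kinase, had 50.1 and 48.3 CPM in the controls and 28.4 and 27.9 CPM in the knockdowns (log2 fold change −0.81, edgeR adjusted p = 0.00012). Its 3 called introns fell from 0.927 to 0.632, from 0.783 to 0.354 and from 0.954 to 0.779. *Mpi*, the mannose phosphate isomerase, had 48.0 and 50.6 CPM against 37.2 and 36.0 CPM (log2 fold change −0.43, edgeR adjusted p = 0.0226). Its adjusted p was 0.169 without control replicate 1 and 0.345 without control replicate 2. In *Gmppa*, which regulates GDP-mannose synthesis, 3 introns fell, the largest from 0.961 to 0.732, while its spliced reads were not called (log2 fold change −0.29, edgeR adjusted p = 0.0575).

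The partners of *Pgghg* on collagen, the lysyl hydroxylases *Plod1*, *Plod2* and *Plod3* and the galactosyltransferase *Colgalt1*, had no call in spliced reads (median −0.10). One of their 38 introns was called, in *Plod1*, from 0.987 to 0.877, with a log2 fold change of its spliced reads of −0.27 (edgeR adjusted p = 0.108). *Colgalt2*, *Nanp* and *Fpgt* were not tested.

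**Figure D5:**
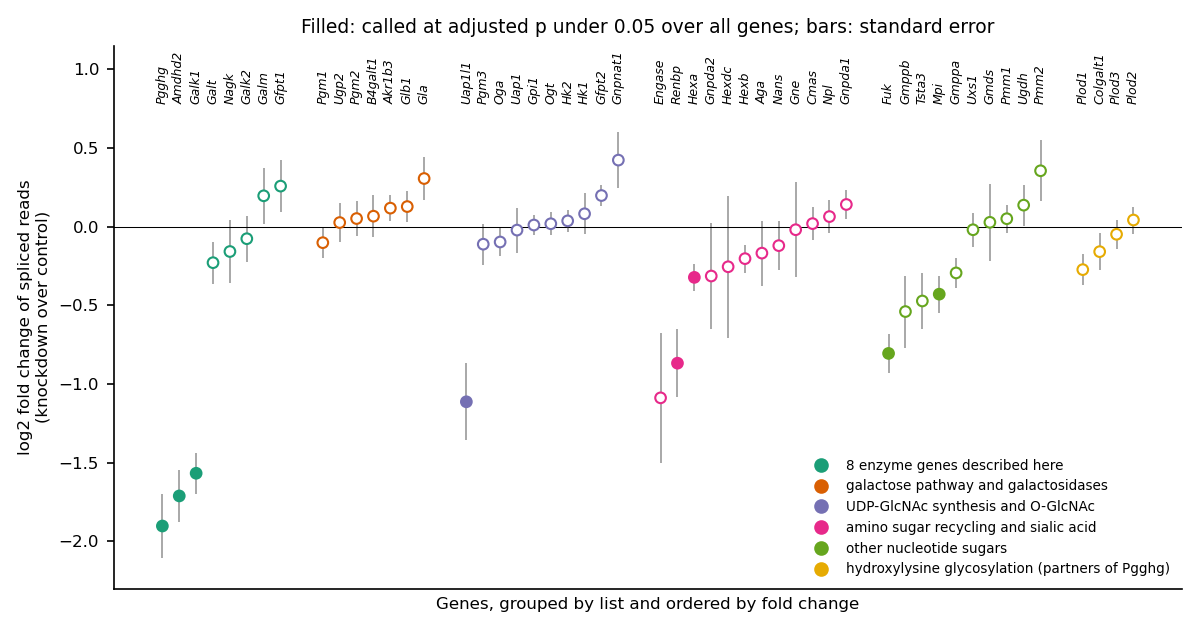
Log2 fold change of spliced reads (knockdown over control, bars are standard errors) of the 8 enzyme genes and 43 of the 44 tested genes of the 5 lists, grouped by list. Filled points were called at an adjusted p under 0.05 over all genes, 3 of the 8 enzyme genes and 5 of the others. *Pgghg*, *Amdhd2* and *Galk1*, between −1.90 and −1.57, are the lowest points.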

How the data were processed

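For total RNA the authors deposited SPLICE-q tables, per the labels, with counts of split and unsplit reads at the 5′ and 3′ junction of introns, 1 per library. The deposited score is a fraction from 0 to 1, checked to equal split over all reads. For long reads the authors deposited read counts per transcript. The submitters' processing notes name GRCm39, minimap2 and SAMtools without roles, and annotation, settings and strand handling are not given in the sources used here. Intron coordinates are those of the tables. Gene names, intron numbers and sequences come from GENCODE M21, matched by transcript and intron number, with equal lengths for all 54 member introns.

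Samples were grouped by title. Introns were reduced to 1 entry per position, and the 681 listed under more than 1 gene were left out of gene sums. Control was compared with knockdown by edgeR 4.0.16 (R 4.3.3) quasi-likelihood tests with Benjamini-Hochberg adjustment, threshold 0.05. The intron model held library terms, an unsplit term and the tested interaction of unsplit reads with knockdown, over introns in all 4 libraries with at least 10 split and 10 unsplit reads. Gene sums used TMM and filterByExpr. Long-read ratios used a pseudocount of 0.5 reads and no test. The tests were tested on simulated data. With 2 libraries a group an exact permutation test cannot go below 0.33 and was not used.

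Alternatives were each junction alone, DESeq2 1.42.0, other scalings and filters, each gene's best covered intron, a replicate block and each library left out. The members and the 5 lists were chosen with earlier results of these data known. Named were all members and their called introns, or else the intron with the largest fall among those listed in all 4 libraries. List genes called or with a called intron were named too. So were member transcripts with 20 or more long reads and retained-intron models with 3 or more. Further introns and genes were named after their values were seen. Single values of some genes are not reported here.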

Additional observations from a re-analysis of the deposited data

How the results depend on the processing

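Member introns called lower numbered 8 as reported, 2 with the 5′ junction alone, 5 with the 3′ junction alone and 5 with DESeq2, which gave no adjusted p for *Galk1* intron 7. Leaving out 1 library gave 2 to 8. Over all introns the reported 1112 calls became 232 with the 5′ junction, 322 with the 3′ junction, 476 with DESeq2 and 171 to 1427 without 1 library. Over all genes 826 calls became 277 with the best covered intron and 381 to 2193 without 1 library, and list genes called went from 5 to 1 with the best covered intron and 2 to 11 without 1 library. *Galk1*, *Pgghg* and *Amdhd2* were the 3 member genes called in every alternative run. Signs reversed only for uncalled values: *Galt* intron 8 (log2 odds ratio −0.0052 with the 5′ junction, −0.23 to 1.47 without 1 library), *Nagk* intron 8 (−1.68 with the 3′ junction, −0.14 to 1.10 without 1 library) and *Galk2* (log2 fold change 0.0055 with the best covered intron). Runs with 1 junction or library fewer hold fewer reads, but some runs without 1 library gave more calls. Why the counts moved was not tested. Where 1 library was left in a group, it was assumed to vary like the other group. Same-numbered libraries did not deviate together (correlation 0.00174 over genes, 0.00846 over introns), and the labels pair nothing. A replicate block gave 9 member introns, 3 member genes, 1626 introns and 1000 genes called. Depth limits *Pgghg* most, with 49 and 74 spliced reads in the knockdown libraries and 3 long reads.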
